A study of Mus musculus with 30 samples.

Results

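Genes that mark lymphatic and sinusoidal endothelium were followed from acutely isolated adult mouse brain endothelial cells (ECs) into 8-day primary cultures. The 8 genes, given as a list of names with earlier results of these data known, were Prox1, Lyve1, Pdpn, Ccl21a and Reln for lymphatic endothelium and Stab1, Stab2 and Gata4 for sinusoidal endothelium. They are 8 of the 21820 protein-coding gene symbols quantified by RNA-seq, and the comparison asks whether brain ECs take on features of other endothelia in culture. RNA-seq was analysed for 14 libraries, all from adult male mice. Acutely isolated brain ECs were GFP-positive sorted cells of homozygous Tie2-GFP mice, in which a Tie2 (Tek) promoter fragment drives GFP in endothelium. The paper states that its adult brain EC data join a cerebrum set and a cerebellum set, the latter published earlier. GFP-negative cells of such brains served as the non-endothelial reference. The GFP-positive and GFP-negative cells had 2 libraries each. Both were sequenced single-end for 75 cycles. WT cultures had 6 libraries. Replicates 1 and 2 came from C57BL/6J mice by method A (papain digestion, 36 cycles, paired-end). Replicates 3 to 6 came from Ctnnb1flex3/+;Tie2-GFP mice, which carry the conditional allele without Cre and had also received 4-hydroxytamoxifen at postnatal day 10, by method B (Dounce homogenization, then collagenase and dispase), with 150 cycles for replicates 3 and 4 and 36 cycles for replicates 5 and 6. Beta-catenin stabilized cultures had 4 libraries from Ctnnb1flex3/+;Pdgfb-CreER;Tie2-GFP mice, in which 4-hydroxytamoxifen given at that age lets an endothelial CreER delete the exon that targets beta-catenin for degradation, with replicates 1 and 2 from method A and 3 and 4 from method B. All cultures were purified with puromycin, which brain ECs survive through their efflux pumps. Wells from pooled mice were the culture replicates, 2 per experiment, so p-values involving cultures measure a spread that is partly between wells of one experiment. Read type and culture cannot be told apart in any comparison of cultured with acutely isolated cells. ATAC-seq peaks, which mark accessible DNA, were given for 2 acutely isolated, 6 WT and 2 stabilized libraries. For ATAC-seq, WT replicates 1 and 2 came from C57BL/6J mice by method A. WT replicates 3 to 6 came from Ctnnb1flex3/+;Tie2-GFP mice by method B. Both stabilized ATAC-seq libraries came from method B, unlike RNA-seq stabilized replicates 1 and 2.

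Lymphatic ECs arise from veins under the homeodomain transcription factor Prox1 and drain tissue fluid and immune cells. They carry the hyaluronan receptor Lyve1 and the mucin-like glycoprotein podoplanin (Pdpn), secrete the chemokine Ccl21, which draws dendritic cells and T cells that bear Ccr7, and secrete reelin. Sinusoidal ECs of liver, spleen, lymph node and bone marrow clear macromolecules from blood and lymph through the scavenger receptors stabilin-1 and stabilin-2, and in liver the transcription factor Gata4 directs their specialization. The brain parenchyma lacks both vessel types, and its capillaries instead form the blood-brain barrier. None of the 8 genes is specific to these endothelia: Prox1, Reln and Pdpn are also used by neurons, glia or the choroid plexus, and Lyve1 and Stab1 by macrophages that border brain vessels.

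The libraries held 24284843 to 94686456 estimated counts. The summed level of 12 endothelial markers was 110 to 118 in transcripts-per-million units (TPM) in the GFP-negative libraries and 4300 to 5094 in acutely isolated ECs. It was 2687 to 5860 in WT cultures and 2845 to 7805 in stabilized cultures. The sum thus lay above the GFP-negative cells in all 12 libraries with the endothelial label. It joins opposite changes. From acutely isolated ECs to WT cultures, 4 of the 12 markers fell, 1 rose and 7 did not pass the edgeR test. The log2 differences were -4.54 for Flt1, -3.50 for Kdr, -3.38 for Tek, -1.97 for Cldn5 and 2.83 for Emcn. Neuronal markers, 8 in number, summed to 214 to 268 TPM in the GFP-negative cells, 3.25 to 5.89 in acutely isolated ECs and 0.255 to 13.6 in WT cultures. In WT cultures against acutely isolated ECs, 5 of the 6 tested neuronal genes fell, Snap25 by 8.38 and Syt1 by 7.62 on the log2 scale among them, and the tubulin gene Tubb3 rose by 7.89 and had the highest mean of the 8 in WT cultures, 5.56 TPM. Mitochondrial transcripts took 10.6 to 24.2% of the counts in the acutely isolated and GFP-negative libraries and 0.667 to 2.58% in cultures. In these bulk samples, fewer cells of a type and less RNA per cell cannot be told apart. Levels below are TPM, which are per transcript length, and counts scaled to the library total are in counts-per-million units (CPM). Differences are log2 fold changes of counts with their standard error (SE), from edgeR's quasi-likelihood test, with p-values adjusted by the Benjamini-Hochberg method over all genes tested.

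In comparing cultured WT brain ECs with acutely isolated brain ECs, the 8 genes did not move together. Lyve1 and Pdpn rose, Ccl21a, Prox1 and Reln fell, Stab1 and Stab2 did not pass the test, and Gata4 was too low to be tested. In counts, 2 of the 7 tested members rose and 3 fell at an adjusted p below 0.05, and over all genes 45.2% of 13786 passed (23.9% higher, 21.3% lower). The median log2 difference of the tested members was -1.17 and that of all genes 0.10. With 7 tested members, the former is the value of Stab2 itself, which rests on few counts and did not pass. With a change above 2-fold and at least 5 TPM in every library of the higher group also required, Ccl21a was the only member left, and 13.5% of all genes were called higher and 10.2% lower. Between acutely isolated ECs and GFP-negative cells, 2 of 6 tested members, Ccl21a and Stab1, were higher in the ECs and 4, Prox1, Lyve1, Pdpn and Reln, were lower, where 29.6% of all 15102 genes passed (9.93% higher, 19.7% lower). With the fold and TPM criteria, Ccl21a and Stab1 stayed higher (8.3% of all genes) and Pdpn and Reln stayed lower (7.56%). The plot of levels by library shows that Ccl21a alone fell from a level above 100 TPM, whereas the rise of Lyve1 ended below 5 TPM.

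**Figure D1:**
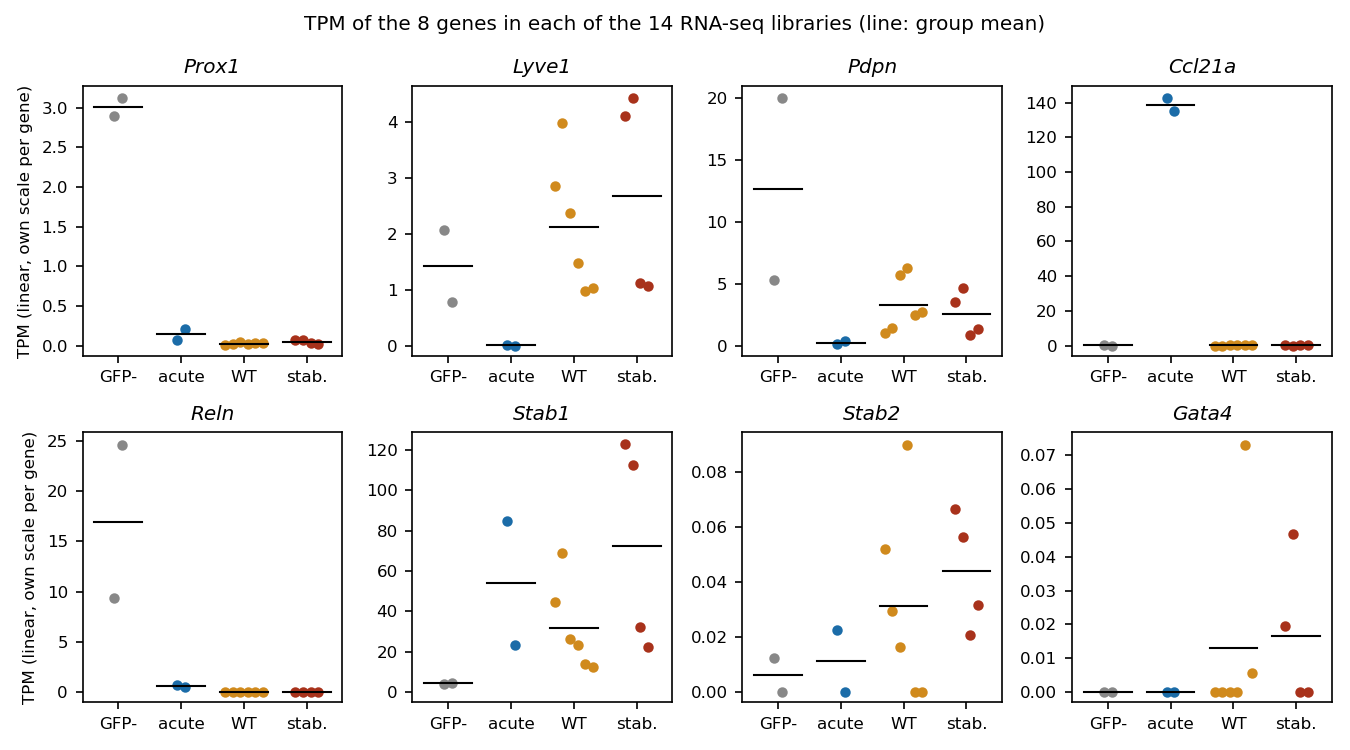
Level (TPM, linear axis with its own scale for each gene) of the 8 genes in each of the 14 RNA-seq libraries, with points for libraries and lines for group means, for GFP-negative cells (GFP-), acutely isolated ECs (acute) and WT and stabilized (stab.) cultures. Ccl21a stood at 135 and 142 TPM in acutely isolated ECs and at no more than 0.279 TPM in the 10 culture libraries.

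Prox1 (ENSMUSG00000010175.13, GRCm38 chr1:190118035-190170714, minus strand), the transcription factor that specifies lymphatic fate, stood at 2.89 and 3.12 TPM in the GFP-negative libraries, with 3111 and 2549 counts. Acutely isolated ECs had 0.0683 and 0.215 TPM. WT cultures had 0.0093 TPM in the lowest, 0.0237 in the median and 0.0449 in the highest library, from 2 to 15 counts. Stabilized cultures had 0.0692, 0.0711, 0.0333 and 0.0249 TPM. All culture libraries thus lay at trace levels, and the WT cultures lay below both acutely isolated libraries. The fall from acutely isolated ECs to WT cultures was 3.30 on the log2 scale (SE 0.596, edgeR adjusted p = 0.00252). In TPM, stabilized replicates 1 and 2 overlapped the lower acutely isolated library. In CPM there was no overlap, with 0.228 to 0.384 in stabilized cultures against 1.32 and 1.60 in acutely isolated ECs. Prox1 in acutely isolated ECs was 0.0321 times its share of counts in GFP-negative cells (95% counting interval 0.0279 to 0.0368), and oligodendrocyte markers summed to 38.1 to 108 TPM in the former and 828 to 2639 TPM in the latter. The part of neuronal or glial RNA in the Prox1 value was not tested.

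The DNA at the Prox1 start was accessible in all 10 ATAC-seq libraries, in spite of the low transcript level. The region chr1:190170123-190171130 had a fold enrichment of 6.52 and 4.46 in acutely isolated ECs, 5.98 to 13.8 in WT cultures and 10.4 and 9.16 in stabilized cultures. The peak summits lay at -24 to 31 bases from the annotated start, so the peaks cover the start and part of the sequence before it. The 250 bases before the RefSeq start are shown as the promoter of this accessible start. They lie at chr1:190170828-190171077 (RefSeq, GRCm38.p6, minus strand) and have a GC content of 64.8%, with CG pairs in capitals.
Prox1 promoter: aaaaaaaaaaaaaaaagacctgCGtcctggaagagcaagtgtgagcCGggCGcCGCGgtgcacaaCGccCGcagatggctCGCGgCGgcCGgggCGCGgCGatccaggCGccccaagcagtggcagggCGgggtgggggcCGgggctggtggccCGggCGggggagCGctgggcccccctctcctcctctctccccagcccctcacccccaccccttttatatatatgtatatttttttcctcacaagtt

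Lyve1 (ENSMUSG00000030787.4, GRCm38 chr7:110850607-110863239, minus strand), the hyaluronan receptor of lymphatic and sinusoidal endothelium, was nearly absent from acutely isolated ECs, with 2 counts in one library and 0 in the other. WT cultures had 0.973 TPM in the lowest, 1.93 in the median and 3.97 in the highest library, from 81 to 361 counts. Stabilized cultures had 4.11, 4.42, 1.13 and 1.07 TPM. GFP-negative cells had 2.06 and 0.775 TPM. Every culture library therefore exceeded both acutely isolated libraries, and the cultures overlapped the GFP-negative cells. The share of counts was 382 times higher in WT cultures than in acutely isolated ECs, with a 95% counting interval of 105 to 3155, which is wide because the denominator rests on 2 counts. The edgeR adjusted p was 0.00156, and the call held under all 19 alternative settings. The mean in WT cultures was 2.11 ± 1.18 TPM (SD, n = 6), below the 5 TPM that the study required of the higher group in a differential call.

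Because macrophages at brain vessels carry Lyve1, their markers were read in the same libraries. The summed level of 12 microglia and macrophage genes was 8.47 to 20.9 TPM in acutely isolated ECs, 40.8 to 74.9 in WT cultures and 41.8 to 90.8 in stabilized cultures. From acutely isolated ECs to WT cultures, 2 of the 5 tested genes rose and 3 fell. Of the 12 genes, 10, with Csf1r, Cx3cr1, Aif1, C1qa, Ptprc, Cd163 and F13a1 among them, stayed below 0.5 TPM in every WT and stabilized library.

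At the Lyve1 locus no peak lay within 1 kb of the start in any of the 10 ATAC-seq libraries. The region chr7:110859695-110860566, 2983 bases into the gene, was called in all 10. Its fold enrichment was 4.89 and 4.20 in acutely isolated ECs, 7.43 to 18.6 in WT cultures and 16.3 and 15.9 in stabilized cultures, so all culture values lay above both acutely isolated ones. Another region called in all 10, outside the gene (chr7:110843801-110844631), did not share this order. Its folds were 12.59 and 11.72 in acutely isolated ECs, 7.10 to 15.62 in WT and 12.01 and 15.35 in stabilized cultures. The part of peak number in these folds was not tested. The 300 bases around the summit of the region within the gene (chr7:110860108-110860407, GRCm38, plus strand, intronic) are shown for comparison with the regions of Pdpn, Reln and Stab2. They hold none of the AP-1 letters TGANTCA and therefore no capitals.
Lyve1 intron: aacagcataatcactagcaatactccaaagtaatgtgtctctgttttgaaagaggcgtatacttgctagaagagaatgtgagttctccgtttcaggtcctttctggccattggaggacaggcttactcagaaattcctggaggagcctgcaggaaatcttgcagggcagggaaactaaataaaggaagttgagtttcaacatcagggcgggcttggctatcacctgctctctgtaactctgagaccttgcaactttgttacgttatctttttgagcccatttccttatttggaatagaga

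Pdpn (ENSMUSG00000028583.14, GRCm38 chr4:143267431-143299564, minus strand), a surface glycoprotein that binds the platelet receptor Clec2, stood at 0.142 and 0.339 TPM in acutely isolated ECs. WT cultures had 1.03 TPM in the lowest, 2.59 in the median and 6.27 in the highest library. Stabilized cultures had 3.49, 4.64, 0.811 and 1.30 TPM. GFP-negative cells had 5.27 and 19.9 TPM. No culture library overlapped the acutely isolated ECs, and the WT range reached into that of the GFP-negative cells. The rise from acutely isolated ECs to WT cultures was 3.35 on the log2 scale (SE 0.799, edgeR adjusted p = 0.00907), and counts were 15.0 times higher (95% counting interval 11.3 to 20.3). With the WT cultures of method A alone the difference was 2.38 and no longer passed (edgeR adjusted p = 0.0821). Pericytes, fibroblasts and choroid plexus can also make podoplanin. In WT cultures the summed fibroblast markers were 7.11 to 41.5 TPM against 15.4 to 15.7 in acutely isolated ECs, the pericyte and smooth muscle markers 164 to 1004 against 627 to 671, and the choroid plexus markers 0.668 to 2.22 against 3.32 to 18.7. The pericyte and smooth muscle sum joins opposite changes: 7 of the 9 genes fell (Pdgfrb, Kcnj8, Abcc9, Rgs5, Notch3, Vtn and Myh11, by 3.18 to 9.97 on the log2 scale), and the smooth muscle actin gene Acta2 and the calponin gene Cnn1 rose, by 3.11 and 4.15. Of 5 tested fibroblast genes 1 rose and 0 fell, and of 3 tested choroid plexus genes 1 rose and 2 fell. The part of these cells in the Pdpn level was not tested.

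Pdpn had no peak at its start in any ATAC-seq library, but an intronic region 21024 bases into the gene (chr4:143278318-143278924) was called in all 8 culture libraries and in neither acutely isolated library. Its fold enrichment was 6.13, 5.94, 11.3, 10.6, 10.6 and 15.7 in WT cultures 1 to 6 and 9.49 and 11.2 in stabilized cultures. Filtered peaks numbered 37384 and 31779 in the acutely isolated libraries and 33122 to 98732 in WT cultures, and the part of peak number in this pattern was not tested. The summit window chr4:143278376-143278675 (GRCm38, plus strand) is printed because it is one of the 4 member regions with this culture pattern, and its single AP-1 match is in capitals.
Pdpn intron: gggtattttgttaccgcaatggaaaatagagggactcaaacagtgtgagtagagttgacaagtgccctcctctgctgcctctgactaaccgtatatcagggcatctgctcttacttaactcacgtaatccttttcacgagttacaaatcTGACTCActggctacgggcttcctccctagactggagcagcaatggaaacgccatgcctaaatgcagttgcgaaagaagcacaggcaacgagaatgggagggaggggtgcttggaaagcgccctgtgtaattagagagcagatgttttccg

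Ccl21a (ENSMUSG00000094686.1, GRCm38 chr4:42772860-42773993, minus strand), a ligand of the chemokine receptor Ccr7, was the highest of the 8 genes in acutely isolated brain ECs, at 142 and 135 TPM. GFP-negative cells had 0.0721 and 0 TPM. In WT cultures it was listed at 0 in replicates 1 and 2 and reached 0.279 TPM at most. Stabilized cultures had 0.0854, 0, 0.228 and 0.191 TPM. The transcript of this lymphatic chemokine was thus plentiful in the brain ECs before culture and at trace levels or listed at 0 after it. The level fell by 10.26 on the log2 scale (SE 0.846, edgeR adjusted p = 8.71e-05), and the culture libraries kept 0 to 17.4 counts where the acutely isolated ones had 12507 and 5427. In acutely isolated ECs against GFP-negative cells the difference was 11.55 (SE 1.09, edgeR adjusted p = 0.00195). Salmon could place these reads on near-identical copies. Ccl21b, Gm13304 and Gm21541 are 99.5, 99.4 and 99.3% identical to the Ccl21a transcript, and 19.4% of the 31-base words of Ccl21a are unique among the 4. The copies received at most 1.06 TPM each in any library, so adding them changes the Ccl21a levels little, but which copy was transcribed is uncertain. No peak lay at the Ccl21a start in any ATAC-seq library, and the part of the near-identical copies in this was not tested. A region outside the gene, 7197 bases downstream of the start (chr4:42766519-42767494), was called in all 10 ATAC-seq libraries.

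Reln (ENSMUSG00000042453.14, GRCm38 chr5:21884454-22344702, minus strand), which encodes the secreted glycoprotein reelin, had 9.32 and 24.6 TPM in GFP-negative cells, where neurons make it. Acutely isolated ECs had 0.720 and 0.479 TPM. WT cultures ranged from 0 to 0.0499 TPM with a median of 0.00975, and stabilized cultures had 0.0314, 0.0330, 0.0119 and 0.0105 TPM. The groups stood apart in the order GFP-negative cells, acutely isolated ECs, cultures, with WT and stabilized cultures overlapping. The fall from acutely isolated ECs to WT cultures was 6.35 on the log2 scale (SE 1.06, edgeR adjusted p = 0.00176). Neuronal markers were also present in acutely isolated ECs at the summed level given above, and their part in the Reln value was not tested.

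Accessible DNA at Reln did not follow the transcript. A peak within 1 kb of the start was called in 0 of 2 acutely isolated, 3 of 6 WT and 2 of 2 stabilized libraries, at folds of 3.06 to 3.72. A region 119996 bases into the gene (chr5:22224308-22225104) was called in all 8 cultures and in neither acutely isolated library, with folds of 8.11 to 20.2 in WT and of 18.8 and 17.7 in stabilized cultures. It was the only one of the 11 Reln regions that all cultures called. The summit window of the latter (chr5:22224553-22224852, GRCm38, plus strand) is shown with its AP-1 match in capitals, and below it the 250 bases before the start (chr5:22344706-22344955, RefSeq, GRCm38.p6, minus strand) with CG pairs in capitals. The 300-base promoter of Reln, which includes 50 bases after the start, holds 47 CG pairs, and 98.6% of all 32851 promoters of that length hold fewer.
Reln intron: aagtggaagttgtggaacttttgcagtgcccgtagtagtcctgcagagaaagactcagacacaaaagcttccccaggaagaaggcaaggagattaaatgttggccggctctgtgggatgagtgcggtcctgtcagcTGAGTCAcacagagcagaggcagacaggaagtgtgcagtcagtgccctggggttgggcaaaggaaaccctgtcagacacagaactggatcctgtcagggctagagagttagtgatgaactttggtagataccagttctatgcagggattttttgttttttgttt
Reln promoter: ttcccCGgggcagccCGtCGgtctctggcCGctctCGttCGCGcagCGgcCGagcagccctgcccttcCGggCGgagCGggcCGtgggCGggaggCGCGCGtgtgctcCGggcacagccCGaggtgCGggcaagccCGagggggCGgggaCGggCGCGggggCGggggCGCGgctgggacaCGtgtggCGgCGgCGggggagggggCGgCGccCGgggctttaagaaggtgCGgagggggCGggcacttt

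**Figure D2:**
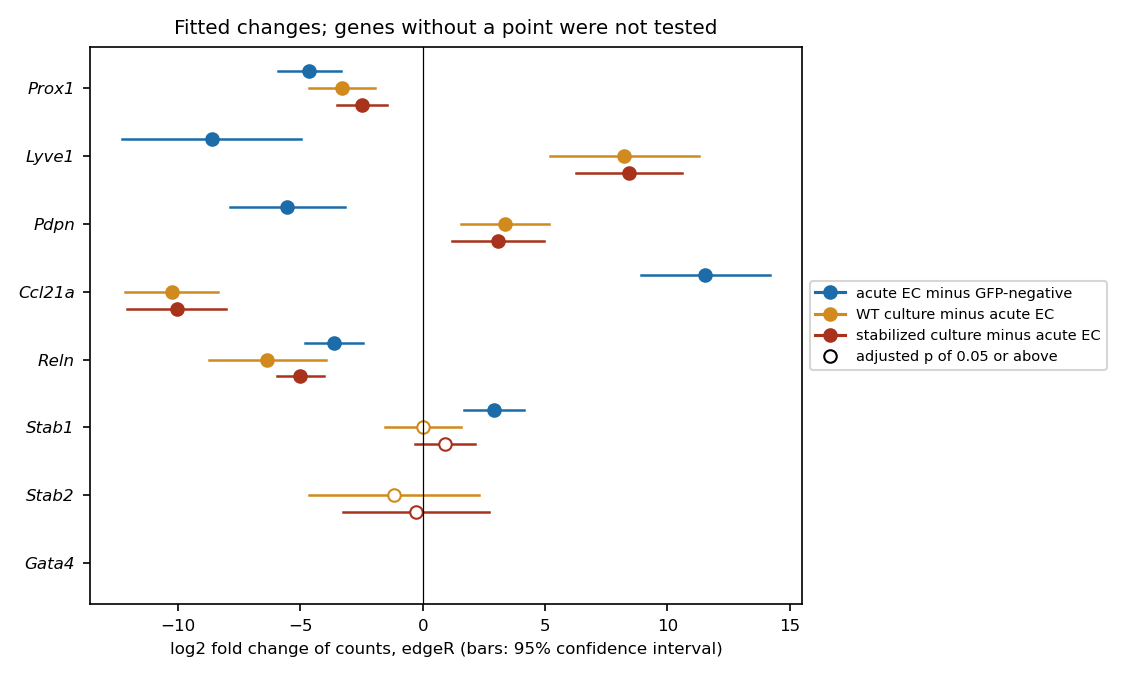
Log2 fold change of counts for each tested member (points) with its 95% confidence interval (bars) from edgeR, for acutely isolated ECs against GFP-negative cells and for WT and stabilized cultures against acutely isolated ECs, with open points where the adjusted p was 0.05 or above. Ccl21a lay at -10.26 and Lyve1 at 8.24 in WT cultures against acutely isolated ECs, the latter a fitted value that rests on 2 counts in acutely isolated ECs, and Stab1 and Stab2 have open points in both culture comparisons.

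Stab1 (ENSMUSG00000042286.13, GRCm38 chr14:31139013-31168641, minus strand), a scavenger receptor of sinusoidal and lymphatic ECs and of macrophages, was the sinusoidal gene that brain ECs expressed at a clear level, both before and after culture. Acutely isolated ECs had 84.6 and 23.4 TPM and GFP-negative cells 4.21 and 4.37 TPM. WT cultures had 12.4 TPM in the lowest, 24.7 in the median and 68.8 in the highest library. Stabilized cultures had 123, 113, 32.1 and 22.5 TPM. In TPM the acutely isolated, WT and stabilized groups overlapped, and all their libraries lay above the GFP-negative cells. The overlap of the stabilized cultures depended on the scale. In CPM they had 501, 462, 186 and 195, all above the 179 and 97.8 of acutely isolated ECs. WT cultures and acutely isolated ECs differed by 0.00 on the log2 scale (SE 0.685, 95% confidence interval -1.55 to 1.55, edgeR adjusted p = 1). This interval leaves room for a change of more than 2-fold either way, and with transcript length as an offset the value was -1.45. The WT wells differed between method A and method B, which also differed in mouse genotype. With method A alone the difference was 0.94 and with method B alone -0.88, and under 19 alternatives the difference passed in 0. Against GFP-negative cells, acutely isolated ECs were higher by 2.92 (SE 0.501, edgeR adjusted p = 0.00972). The Stab1 start (chr14:31168353-31168914) had a peak in all 10 ATAC-seq libraries, with folds of 9.13 and 7.42 in acutely isolated ECs, 3.24 to 7.81 in WT and 5.18 and 4.81 in stabilized cultures. A region at -4289 bases from the start, upstream and within Nisch, was called in all 8 cultures and in neither acutely isolated library. The 250 bases before the start (chr14:31168642-31168891, RefSeq, GRCm38.p6, minus strand, CG pairs in capitals) are shown because this is the member start that was both accessible and transcribed in every endothelial group.
Stab1 promoter: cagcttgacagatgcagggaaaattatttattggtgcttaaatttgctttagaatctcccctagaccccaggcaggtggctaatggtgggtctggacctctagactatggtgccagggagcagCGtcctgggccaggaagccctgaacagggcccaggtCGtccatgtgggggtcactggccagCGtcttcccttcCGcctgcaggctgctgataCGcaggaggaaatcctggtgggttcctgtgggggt

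The transcripts behind the Stab1 value differed between acutely isolated and cultured ECs. The full-length transcript Stab1-201, of 69 exons and 7999 bases, had 2.35 and 5.61 TPM in acutely isolated ECs, and from 9.31 to 37.6 TPM in WT cultures. Stabilized cultures had 72.8, 75.9, 16.8 and 16.7 TPM, so no culture library overlapped the acutely isolated ECs for this transcript. It made up 2.78 and 24.0% of the gene's TPM in acutely isolated ECs, 54.6 to 92.3% in WT cultures and 52.2 to 74.4% in stabilized cultures. The remainder of the TPM in acutely isolated ECs lay mainly on shorter transcripts. A transcript of 413 bases, which starts 97.2% of the way into the gene, had 34.7 and 15.9 TPM, and another, which starts 93.7% of the way in, had 24.6 and 0. Another one, of 2427 bases, which starts 0.2% of the way in, had 20.2 and 0 TPM. By counts, Stab1-201 took 26.6 and 89.5% of the gene in the acutely isolated libraries and 92.0 to 97.5% in WT cultures. Over 3477 genes, the median share of TPM in the longest transcript was 4.74 and 6.43% in acutely isolated ECs, 6.58 and 5.80% in GFP-negative cells and 21.3 to 25.2% in cultures. The TPM sum of Stab1 in acutely isolated ECs therefore rests largely on transcripts other than the full-length one, whereas the counts of acutely isolated replicate 2 rest mainly on it. Read type and culture cannot be told apart here.

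**Figure D3:**
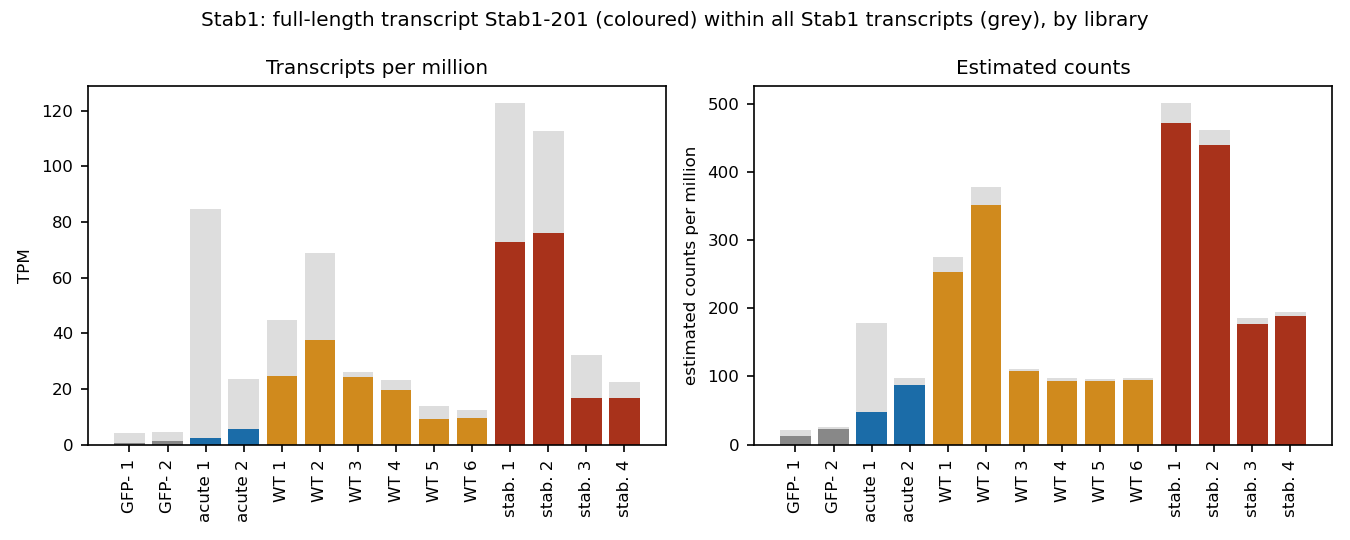
Stab1 by RNA-seq library, as TPM (left) and as estimated CPM (right), with the full-length transcript Stab1-201 in colour within all Stab1 transcripts in grey. The full-length part was 2.35 and 5.61 TPM in acutely isolated ECs and 9.31 TPM or more in the 10 culture libraries.

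Stab2 (ENSMUSG00000035459.18, GRCm38 chr10:86841198-87008025, minus strand), which clears hyaluronan in liver and spleen sinusoids, stayed below 0.1 TPM in every library. Acutely isolated ECs had 0.0225 and 0 TPM, WT cultures 0 to 0.0898 with a median of 0.0229, and stabilized cultures 0.0664, 0.0563, 0.0209 and 0.0318. The groups overlapped, and no WT library held more than 9 counts. The share of counts in WT cultures was 0.427 times that in acutely isolated ECs (95% counting interval 0.241 to 0.743), but all acutely isolated counts came from 1 library, and the difference of -1.17 did not pass (SE 1.54, edgeR adjusted p = 0.561). Gata4 (ENSMUSG00000021944.15, GRCm38 chr14:63198922-63271692, minus strand) had 0 counts in acutely isolated and GFP-negative libraries, 3 in all WT cultures and 7 in all stabilized cultures. A count of 0 allows up to 0.0200 CPM over the acutely isolated libraries, for counting error only, and no fold is given. Transcripts of this factor of liver sinusoidal identity were thus at the limit of detection in every group. Gata4 had no peak at its outermost annotated start. The longer transcripts Gata4-201 and Gata4-202 start inside the gene, and the region that covers their starts (chr14:63244963-63245759) was called in 1 of 2 acutely isolated, 5 of 6 WT and 2 of 2 stabilized libraries, at folds of 2.88 to 6.96.

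In spite of its trace transcript level, Stab2 held 18 of the 59 accessible regions assigned to the 8 genes. One at 40567 bases into the gene (chr10:86967062-86967739) was called in all 8 cultures and in neither acutely isolated library, at folds of 7.69 to 19.3 in WT and of 13.4 and 15.9 in stabilized cultures. A further region was called in both acutely isolated libraries and in no culture, at folds up to 4.21. The summit window of the culture region (chr10:86967270-86967569, GRCm38, plus strand, intronic) holds no AP-1 letters.
Stab2 intron: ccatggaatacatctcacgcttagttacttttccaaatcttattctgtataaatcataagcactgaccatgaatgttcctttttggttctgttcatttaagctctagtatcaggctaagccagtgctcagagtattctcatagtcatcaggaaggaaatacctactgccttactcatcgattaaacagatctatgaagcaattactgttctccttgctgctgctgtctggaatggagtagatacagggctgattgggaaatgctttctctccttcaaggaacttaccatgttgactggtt

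Taking the 8 genes together, 8 of their 59 regions were called in all 10 libraries, 4 in the cultures alone (Pdpn, Reln, Stab1 and Stab2) and 1 in the acutely isolated ECs alone. Among all 125880 regions these shares were 13.4%, 8.03% and 2.83%, so the members' counts were near the background. Starts with a peak in all 10 libraries were those of Prox1 and Stab1. The share of all protein-coding starts with a peak in all 10 was not computed, so this has no like background. In a single library, 50.1 to 61.4% of 21938 protein-coding starts had a peak. In windows of 300 bases at the summits, the AP-1 letters TGANTCA, which read the same on both strands, were found in 52.8% of the 10110 regions called in cultures alone, 12.8% of the 16894 called in all libraries, 5.90% of the 3561 called in acutely isolated ECs alone, and 7.81% of promoters. The printed windows of Pdpn and Reln hold the letters and that of Stab2 does not. The median GC content of these sets was 47.7, 60.0 and 47.3% for the regions and 52.7% for promoters. It was thus close between the regions called in cultures alone and in acutely isolated ECs alone. The regions called in all libraries and the promoters differed from both in base composition. The letters CTTTGA, or their reverse complement, of TCF and LEF factors were in 39.2% of regions called in acutely isolated ECs alone and 18.5% of those called in cultures alone. A match is a description of the letters and not of binding.

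**Figure D4:**
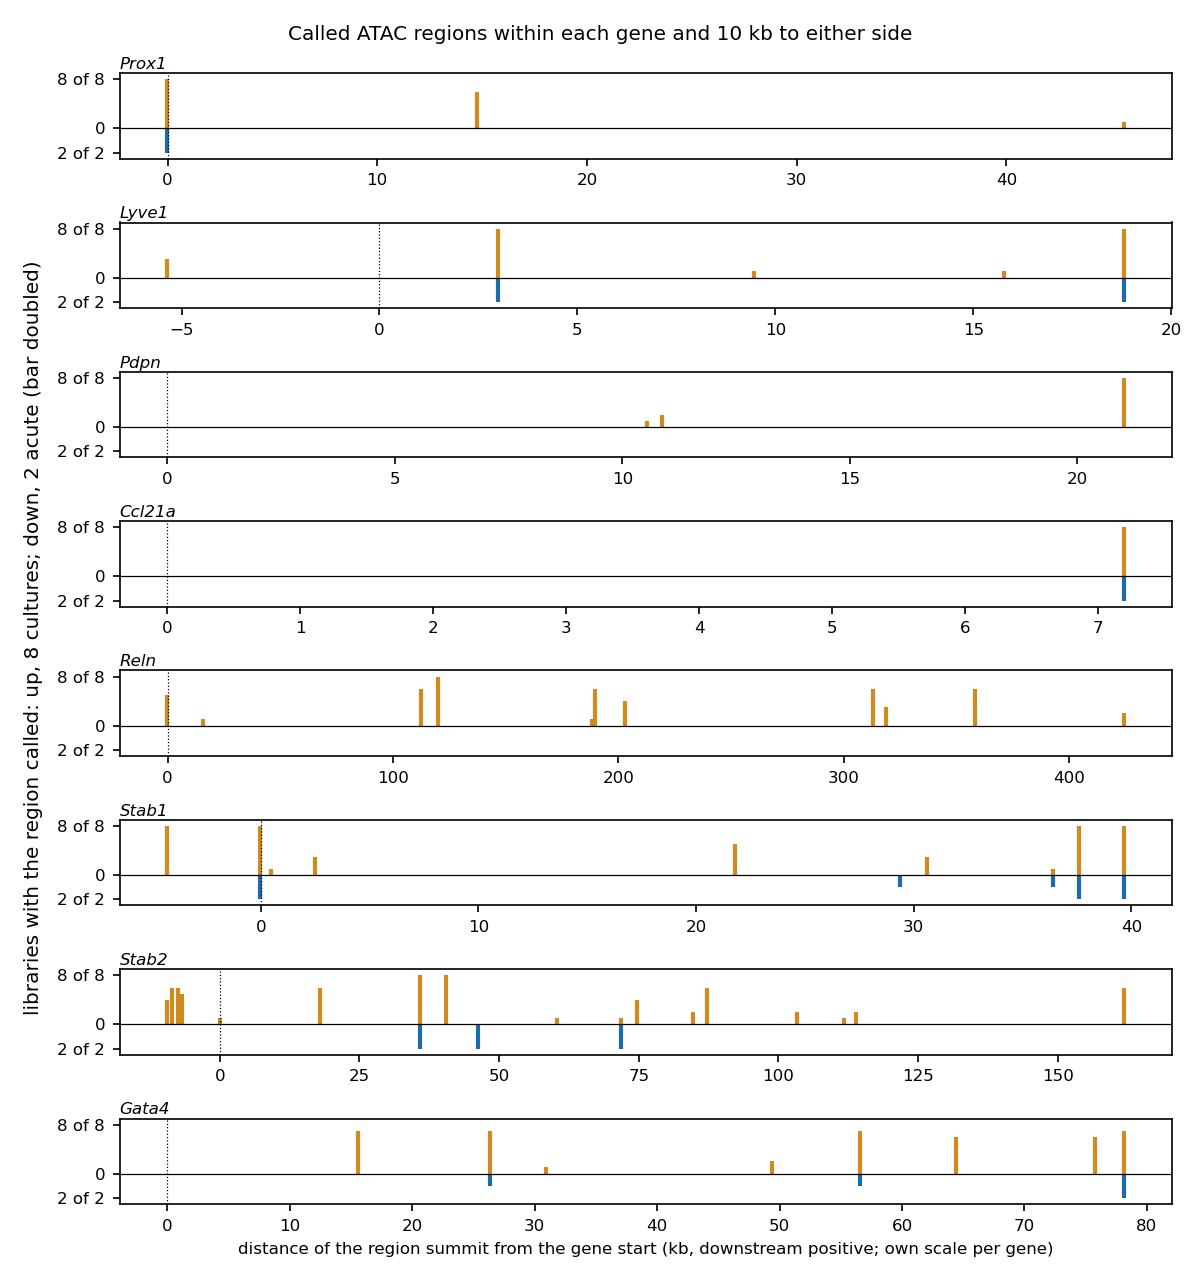
Accessible regions called within each gene and 10 kb to either side, by the distance of the summit from the gene start (kb), with the number of the 8 culture libraries that called the region as an upward bar and that of the 2 acutely isolated libraries as a downward bar drawn at double height. Prox1 and Stab1 have a region at the start in all 10 libraries, and the Reln row has no downward bar.

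Stabilization of beta-catenin, which drives the Wnt target genes of barrier ECs, was compared with WT cultures to learn whether it shifts these genes. None of the 5 tested members passed, nor did any of 12959 genes (0%, edgeR at an adjusted p below 0.05). At an unadjusted p below 0.05 there were 1421 genes and 0 members, and DESeq2 called 235 genes and 0 members. The Stab1 difference was 0.88 on the log2 scale (SE 0.504, 95% confidence interval -0.233 to 1.999, edgeR adjusted p = 0.529). For Lyve1 it was 0.13 (-1 to 1.26) and for Pdpn -0.32 (-1.20 to 0.55). These intervals do not show that the genotypes were alike.

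The cultures differed by isolation method, and the members are therefore also given within each method. At 36 cycles each method held 1 experiment of 2 wells per genotype, so experiment and genotype cannot be told apart. WT wells came from C57BL/6J mice in method A and from mice with the conditional allele in method B. Between the methods, isolation and WT genotype therefore cannot be told apart either. Stab1 was higher in stabilized cultures under both. In method A it had 276 and 378 CPM in WT and 501 and 462 in stabilized wells, and in method B at 36 cycles 96.2 and 97.4 against 186 and 195. With method as a term and 36-cycle libraries alone, the Stab1 difference was 0.69 (SE 0.123, edgeR adjusted p = 0.013), where 17.6% of 12922 genes passed. Pdpn went opposite ways. In method A it had 1.94 and 2.61 CPM in WT and 4.66 and 5.75 in stabilized wells, and in method B 5.11 and 4.77 against 1.74 and 3.05. The within-method differences of Pdpn were 1.04 (edgeR adjusted p = 0.00471) and -1.03 (edgeR adjusted p = 0.0178). Lyve1 in method A depended on the scale, since CPM were 10.1 and 10.8 in WT and 8.96 and 8.83 in stabilized wells, while TPM were 2.86 and 3.97 against 4.11 and 4.42. In method A, 4 of 6 tested members passed where 56% of all genes did, and in method B 2 of 6 where 37% did.

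**Figure D5:**
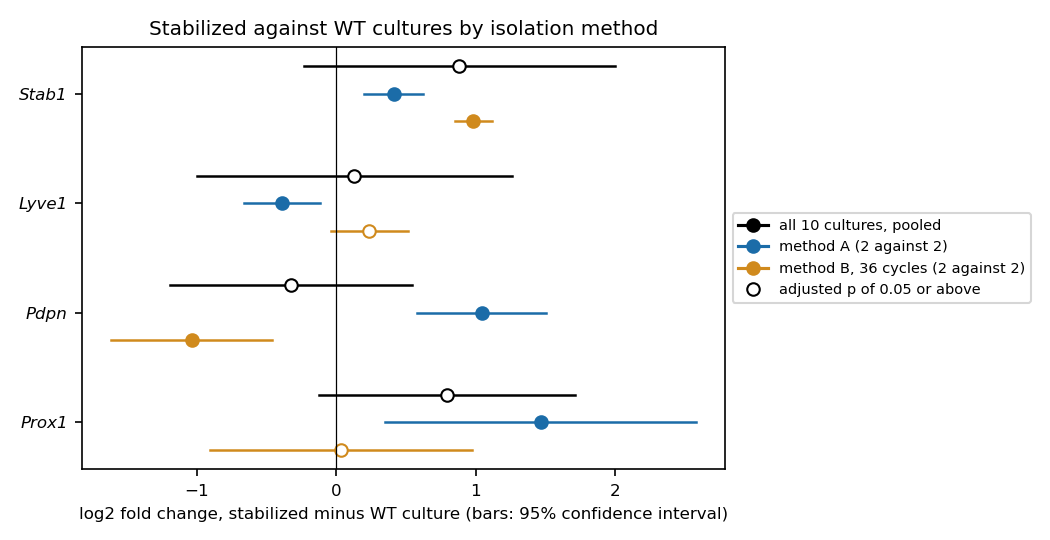
Log2 fold change of stabilized minus WT cultures (points) with 95% confidence intervals (bars) for Stab1, Lyve1, Pdpn and Prox1, over all 10 cultures and within method A and method B at 36 cycles, with open points where the adjusted p was 0.05 or above. Pdpn lay at 1.04 in method A and at -1.03 in method B, and Stab1 lay above 0 in both.

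Against acutely isolated ECs, the stabilized cultures gave the same member calls in direction as WT cultures, with which they share the acutely isolated libraries. Lyve1 was higher, with a share of counts 474 times that of acutely isolated ECs (95% counting interval 131 to 3921), and Pdpn was higher by 3.07 on the log2 scale. Prox1, Ccl21a and Reln were lower, with differences of -2.48, -10.06 and -4.996, in the edgeR test. These are 2 higher and 3 lower of 7 tested members, where 56.7% of 13891 genes passed (28.9% higher, 27.8% lower). With the fold and TPM criteria 1 member, Ccl21a, stayed lower (11.0% of all genes) and 0 stayed higher (15.1%). With the wells of each experiment summed, Pdpn (3.13, edgeR adjusted p = 0.0553) and Prox1 (-2.42, edgeR adjusted p = 0.0716) no longer passed. The Stab1 difference was 0.91 (SE 0.519, edgeR adjusted p = 0.171).

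Wider lists of lymphatic, sinusoidal and partner genes also moved in both directions from acutely isolated ECs to WT cultures. Of 18 tested lymphatic genes, 3 rose, 4 fell and 11 did not pass, with a median log2 difference of 0.67, against 0.10 over all genes, of which 23.9% rose and 21.3% fell. The genes with the largest rises were Ccbe1, a cofactor for Vegfc processing, by 5.76, Foxc2, a transcription factor of lymphatic valves, by 3.04, and the valve integrin Itga9 by 2.55. Those with the largest falls were the tight junction gene Cldn11 (-4.31), the lymphangiogenic factor Vegfd (-2.31, edgeR adjusted p = 0.0497) and Nr2f2, the venous factor that acts with Prox1 (-2.25). Gata2, a factor of lymphatic valves named after its values were seen, fell by 1.83 and was the only gene of this list to meet the fold and TPM criteria. Cldn11, a myelin gene as well, was at 240 and 65.0 TPM in GFP-negative cells and at 0.481 and 3.44 in acutely isolated ECs. Flt4, the receptor of Vegfc, which was named after its values were seen, was at 22.8 and 12.4 TPM in acutely isolated ECs. It was at 13.6 to 46.9 TPM in WT cultures, and did not pass (log2 difference -0.90, edgeR adjusted p = 0.102). Its direction depended on the scale, since the TPM ranges overlapped with the highest value in a WT culture, while the count difference was negative.

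Of 15 tested sinusoidal genes, 3 rose, 1 fell and 11 did not pass, with a median of 0.89, where 23.9% of all genes rose and 21.3% fell. Bmp2, which liver sinusoidal ECs use to control iron uptake, rose from 0.267 and 0.288 TPM to between 5.46 and 112 TPM in WT cultures (log2 difference 5.86, edgeR adjusted p = 0.00297). The angiocrine factor Wnt2 rose by 5.66 and Oit3, a liver sinusoidal marker, by 3.57, the latter to no more than 0.945 TPM. The Fc receptor Fcgr2b fell by 7.51. Clec4g, a marker of liver sinusoidal ECs also named after its values were seen, was listed at 0 TPM in acutely isolated ECs and in all cultures.

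Of 16 tested genes that act with the 8 members, 7 rose, 2 fell and 7 did not pass, with a median of 1.02, where 23.9% of all genes rose and 21.3% fell. The hyaluronan receptor Cd44 rose from 0.143 and 0.0919 TPM to between 5.05 and 46.3 TPM (log2 difference 5.78, edgeR adjusted p = 0.00241). Has2, a hyaluronan synthase, rose from 0 and 0.0051 TPM to between 0.666 and 2.79 TPM, while Has3, another synthase, fell by 3.61. Gdf15, a stress-induced cytokine, was listed at 0 in both acutely isolated libraries and at 17.7 to 43.2 TPM in WT cultures. The reelin receptors parted. Lrp8 fell from 62.1 and 50.2 TPM to between 2.64 and 8.32 TPM (log2 difference -4.78, edgeR adjusted p = 1.51e-05), and Vldlr, named here after its values were seen, was 0.136 and 0.181 TPM in acutely isolated ECs and 3.18 to 7.99 TPM in WT cultures (log2 difference 3.40, edgeR adjusted p = 0.000932). Between stabilized and WT cultures 0 genes of the 3 lists passed.

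Genes with the most similar pattern over the 14 libraries were found by Pearson's r of log2(TPM + 1) among 10597 genes, as a description of libraries that share depth and group. For Ccl21a they were Gkn3 (r = 0.994), Degs2 (0.993) and Adamtsl2 (0.990), with group means of 48.6, 50.1 and 12.4 TPM in acutely isolated ECs and below 0.5 TPM in WT cultures. For Lyve1 they were the ectonucleotidase gene Nt5e (0.940), the heparan sulfate polymerase gene Ext1 (0.923) and Insig1 (0.914). Nt5e went from a mean of 0.006 TPM in acutely isolated ECs to 6.03 in WT cultures. For Stab1 they were Trpm6 (0.970), the integrin gene Itga1 (0.949) and Mmrn2 (0.946), an endothelial matrix gene. For Prox1 (Chl1, Nrxn3 and Sox8) and Reln (Ppp1r3c, Dmp1 and Amph) they were genes with means above 10 TPM in GFP-negative cells and below 1 TPM in acutely isolated ECs. For Pdpn they were Erc2 (0.974), Mras (0.959) and Them4 (0.947).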

How the data were processed

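RNA was measured in 14 libraries and accessible DNA in 10. Per the labels and the study's methods, the authors quantified reads with Salmon 0.14.0 on GENCODE M21 and deposited, per transcript, estimated counts, TPM and the effective length. They aligned ATAC-seq reads to GRCm38 with HISAT2 2.1.0, removed duplicates and called peaks per library with MACS2 2.1.2, and the deposited peaks give the fold enrichment, −log10 p and q values and a display score, which was not analysed. The 8 members and all gene lists were chosen with earlier results of these data known. Of each list, the text names the 3 passing genes with the largest change in each direction.

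Counts and TPM were summed over transcripts per symbol for 21820 protein-coding symbols, and counts were rounded. edgeR 4.0.16 (R 4.3.3) fitted each comparison on its own groups, with filterByExpr, TMM scaling and quasi-likelihood tests, adjusted over all genes tested. A gene met the study's criteria at an adjusted p below 0.05, a change above 2-fold and at least 5 TPM in every library of the higher group. Wells served as replicates. Counting intervals are exact, at 95%, and cover counting error only, as does the floor of 3 counts. Peaks were kept at a fold above 2 and −log10 q above 2, merged over the 10 libraries, and assigned to a gene when within 10000 bases of it. Effective lengths served as an offset in one alternative. The scripts were tested on simulated data. Alternatives were another scaling and test (DESeq2 1.42.0), other filters, summed wells, single methods, the replicate number as a block, and leaving out each library. The authors' transcript counts from cerebrum libraries were not analysed here. One stabilized library's record gives genomic DNA as its molecule, and its title and protocol were followed.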

Additional observations from a re-analysis of the deposited data

Results flagged for a closer look

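The stabilized-minus-WT difference was unlike between the isolation methods for 3 members, by an interaction term in edgeR (quasi-likelihood, Benjamini-Hochberg) on the 36-cycle libraries. The term was chosen after seeing the data, and 49.9% of 13358 genes passed it. Method B minus method A, this difference of differences was 0.62 for Lyve1 (SE 0.149, adjusted p = 0.00836), -2.09 for Pdpn (SE 0.343, adjusted p = 0.00137) and 0.56 for Stab1 (SE 0.105, adjusted p = 0.00269). For Stab2 the fit gave 5.44 (edgeR adjusted p = 0.0245), but both WT wells of method B at 36 cycles held 0 Stab2 counts, so this value is set by the prior count and measures no difference. For Prox1 it was -1.45 (adjusted p = 0.0775) and for Reln -1.08 (adjusted p = 0.429). Each method and genotype was 1 experiment of 2 wells, so experiment and method cannot be told apart.

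Gata4 stood out in WT culture replicate 5, at 0.0731 TPM where 4 of the other libraries were at 0 and replicate 6 at 0.0055, by Dixon's test at 95%. It was the only one of 16 groups of values in which the test passed, and chance gives about 1 in 20. The 6 WT libraries hold 3 Gata4 counts between them.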

How the results depend on the processing

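Over the alternatives, counts of members and group means kept their side in 128 cases and moved in 12, and member values kept their direction and call in 368, reversed in 20, became stronger in 6 and weaker in 5. Depth limits Stab2, Gata4 and Lyve1 in acutely isolated ECs, and few experiments limit the culture comparisons. Against acutely isolated ECs, Stab1 in WT cultures was -0.083 with DESeq2 size factors, -0.081 in the DESeq2 test, -1.45 with the length offset, -0.88 with method B alone, 0.94 with method A alone, 1.07 with the replicate block and -0.51 to 0.74 when libraries were left out in turn. Stab2 there was 0.28 with the length offset, 0.85 with the replicate block and -2.14 to 5.29 by leaving out libraries. In stabilized cultures against acutely isolated ECs, Stab1 was -0.57 and Stab2 0.94 with the length offset, and Stab2 1.27 with the block and -1.23 to 6.60 by leaving out libraries. Stabilized against WT, Lyve1 was -0.39 in method A, -0.093 with method as a term and -0.042 to 0.48 by leaving out libraries, and Pdpn 1.04 in method A. With method A alone 1 member rose from acutely isolated ECs to WT cultures. Stabilized against WT, 3 members were higher and 1 lower in method A, 1 and 1 in method B, and 1 higher with method as a term. With wells summed, 1 member was higher in stabilized cultures than in acutely isolated ECs (Pdpn 3.13, adjusted p = 0.0553; Prox1 -2.42, adjusted p = 0.0716, edgeR). Under stricter peak limits 1 member start, not 2, had a peak in every WT library. By counts rather than TPM, the Stab1-201 share was 73.0% against 23.3% in GFP-negative cells, 58.1 against 13.4 in acutely isolated ECs, 95.2 against 71.5 in WT and 95.4 against 63.3 in stabilized cultures. Without GFP-negative replicate 1, Lyve1 in acutely isolated ECs missed the threshold (-7.39, adjusted p = 0.0915, edgeR), leaving 3 members lower. Between stabilized and WT cultures, the correlations of deviations were 0.528, 0.522, -0.01 and 0.043 for replicate numbers 1 to 4. Numbers 1 and 2 were method A in both genotypes, so there the number carries the isolation method. Stabilized replicate 1 correlated best with WT replicate 2, and stabilized replicates 3 and 4 with WT replicate 6. The numbers therefore do not mark pairs of samples. With the block, Prox1 in stabilized cultures against acutely isolated ECs was -2.33 (adjusted p = 0.162, edgeR) and Stab1 1.503 (adjusted p = 0.00103, edgeR). Over all genes by the study's criteria, WT cultures against acutely isolated ECs gave 1866 higher and 1410 lower, and 3161 and 2827 without the TPM minimum, and 835 lower with wells summed. Stabilized cultures against them gave 2091 and 1528, and 3408 and 3210 without the minimum. Acutely isolated ECs against GFP-negative cells gave 1253 higher and 1142 lower, 2978 lower without the minimum, 669 higher with the length offset and 662 to 1665 by leaving out libraries. Stabilized against WT gave 0, and 14 and 3 with DESeq2, 143 and 44 with the block, 691 and 118 in method A, 139 and 37 in method B, and 66 and 10 with method as a term. Scaling by library size alone moved the median of all genes in WT cultures against acutely isolated ECs from 0.10 to 0.30, and that of acutely isolated ECs against GFP-negative cells from -0.06 to -0.44.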
